A study of Mus musculus with 16 samples.

Results

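Of the 16 RNA-seq samples of this study, all from C57BL/6 mouse spleen, 8 hold the material kept back by a cell strainer, and these size-selected samples are described here by how much mesothelial RNA they carried. Each was ranked by a mesothelial score, the mean of log2(CPM + 1) over Msln, Upk3b, Krt19 and Lrrn4, where CPM is a gene's counts over the sample's total, times 1000000. The 4 samples with the highest scores (numbers 445, 447 and 460, female, and 407, male) are called high, and the 4 with the lowest (435 and 427, male, 436, female, and 408, male) are called low. No gene of the score was used in any count of changed genes, though the 4 were among the genes over which edgeR's p-values in these samples were adjusted.

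The size-selected samples were made by mincing the spleens, digesting them with enzymes that included Dispase II, lysing red blood cells and straining the suspension, and the cells left on the strainer were lysed for RNA. The labels name the source of these samples as spleen glia, support cells that lie along nerves, and the sodium channel gene Scn7a of non-myelinating glia was measured at 23.2 to 202 CPM in them against 0 to 1.05 CPM in the 8 whole spleen samples that carry the same numbers. Age, genotype beyond the strain and any treatment are not given in the sources used here. Nothing in the labels says that each number is a separate mouse, so p-values measure the spread between these samples.

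The mesothelium is the single layer of flat epithelial cells that covers the spleen, the other abdominal organs and the body wall, and it rests on the fibrous capsule. Its cells carry keratins like an epithelium and vimentin like a mesenchyme, release lubricants such as hyaluronan, and make retinoic acid.

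The 4 genes of the score stand for different parts of this cell. Msln encodes mesothelin, a surface glycoprotein anchored in the membrane by a lipid. Upk3b encodes a uroplakin, a plaque protein of the urothelium that mesothelial cells also make, and Krt19 encodes a keratin of simple epithelia. Lrrn4 encodes a membrane protein with leucine-rich repeats that is widely used as a mesothelial marker.

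In GENCODE release M21 on GRCm38, Msln lies on chromosome 17 from 25748613 to 25754378, Upk3b on chromosome 5 from 136038496 to 136046487, Krt19 on chromosome 11 from 100140810 to 100148665, and Lrrn4 on chromosome 2 from 132868305 to 132880891. Upk3b and Lrrn4 were the pair of score genes that moved together most closely over the 8 samples (r = 0.97 of their log2 CPM), so the 250 bases before their RefSeq start sites (GRCm38.p6) are shown, 5′ to 3′ on the strand of each gene. Capitals mark GGAATG, or CATTCC where it lies on the other strand, the core bound by TEAD factors.
Upk3b, chr5:136038246-136038495, plus strand: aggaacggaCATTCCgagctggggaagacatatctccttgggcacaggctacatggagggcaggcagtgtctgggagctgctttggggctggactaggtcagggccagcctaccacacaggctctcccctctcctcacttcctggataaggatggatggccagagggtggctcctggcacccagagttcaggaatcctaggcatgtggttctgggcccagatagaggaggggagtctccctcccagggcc
Lrrn4, chr2:132880863-132881112, minus strand: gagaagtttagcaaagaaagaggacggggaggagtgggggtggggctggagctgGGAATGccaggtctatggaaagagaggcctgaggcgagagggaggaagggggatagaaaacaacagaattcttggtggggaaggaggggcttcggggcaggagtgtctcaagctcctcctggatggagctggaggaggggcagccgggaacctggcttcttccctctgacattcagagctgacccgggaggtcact
The capitals begin 241 bases before the start of Upk3b and 196 bases before that of Lrrn4. Windows were found for 18 of the 27 genes looked up (Msln, Krt19, Upk1b and Krt15 were not among them), and 5 of the 18 held the letters on either strand. Of all 32851 windows of that length in the table, 12.6% held them, and a match describes letters and shows no binding.

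The score fell in steps rather than in 2 clear sets. It was 5.45, 4.82, 4.68 and 4.40 in samples 445, 447, 460 and 407 and 3.94, 3.66, 3.46 and 2.52 in samples 435, 427, 436 and 408, and values below are given in these 2 orders. The samples on either side of the division, 407 and 435, were 0.46 apart out of a range of 2.92, so the 4 high and 4 low samples are the ends of 1 series with 408 lowest. The means were 4.84 ± 0.443 (SD, n = 4) and 3.40 ± 0.614 (SD, n = 4), which the choice of samples fixed and which carry no test. The same genes were nearly absent from whole spleen, where the score was 0.095 to 0.798 and no score gene exceeded 13 counts in a sample.

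Sample 408 stood apart from the others in more than its score. Of the 8 size-selected samples it had the lowest mean log2 CPM for the lists of capsular fibroblast genes (4.71 against 5.28 to 6.69), interstitial matrix (6.36 against 6.77 to 8.03), smooth muscle (5.30 against 5.83 to 7.27) and endothelium (6.53 against 6.82 to 7.79), and the B cell gene Ms4a1 was second highest in it (445 CPM), after 435 (654 CPM). List counts are therefore given with and without it. Sample 427 had the lowest Ms4a1 (183 CPM), and 436 the highest level of glial and matrix genes.

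Each gene of the score followed this order in its own way. Msln was at 39.1, 29.0, 26.7 and 13.4 CPM in the high samples and at 15.2, 14.2, 8.12 and 6.10 CPM in the low samples. The 2 sets overlapped for Msln, since 407 was below 435 and 427. Upk3b was at 60.7, 39.4, 38.7 and 35.0 CPM against 30.7, 28.2, 18.9 and 6.78 CPM, with no overlap and with 408 far below the rest. Krt19 was at 46.5, 27.6, 31.7 and 19.7 CPM against 8.17, 4.14, 13.1 and 5.34 CPM, and Lrrn4 at 30.0, 17.6, 11 and 17.6 CPM against 10.9, 10.2, 4.80 and 2.13 CPM. Krt19 had the widest separation of means (4.08-fold) and Upk3b the narrowest (2.05-fold), with 2.48-fold for Msln and 2.73-fold for Lrrn4. Krt19 also moved least closely with the others (r = 0.68 with Lrrn4, 0.70 with Upk3b and 0.76 with Msln). The fitted difference from whole spleen was 5.86 to 6.45 on the log2 scale for the 4 genes (edgeR), which is given as a description with no test, since they had enough counts only in the size-selected samples. Of the 14506 genes of that comparison, 37.5% were called higher and 30.4% lower.

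**Figure D1:**
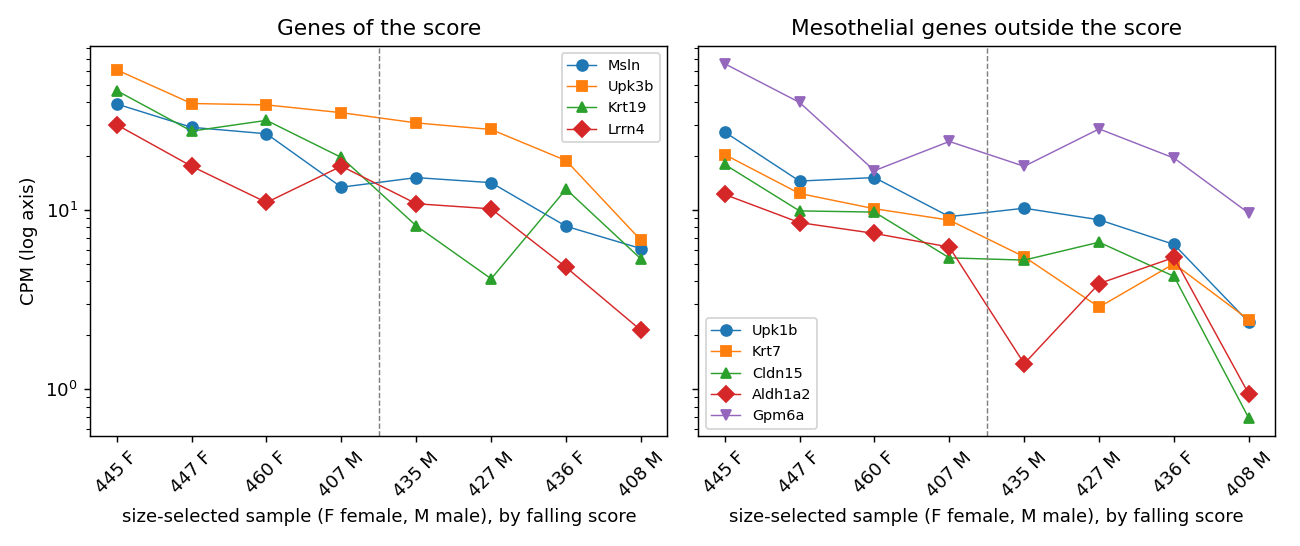
CPM on a log axis of the 4 score genes (left) and of 5 mesothelial genes outside the score (right) in each size-selected sample, ordered by falling score, with a dashed line between the 4 high and 4 low samples; values are not scaled to gene length. Most lines fall from left to right, and the lowest point of Upk3b (6.78 CPM), Lrrn4 (2.13 CPM), Upk1b (2.36 CPM) and Cldn15 (0.688 CPM) is sample 408. The 5 genes on the right are those of the mesothelial list that DESeq2 called, so their fall is set by the choice. Genes of the list that did not follow the score, such as Krt8, Krt18 and Has1, are not drawn.

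Mesothelial genes that were not in the score mostly went with it, though none passed edgeR's test across all genes, while DESeq2 called 5 of them. Each gene was fitted with a slope, the log2 change in its expression for each unit of score, and 15123 genes were tested besides the score genes. Of the 20 other mesothelial genes listed, 19 had enough counts to be tested and the mucin Muc16 did not (0 to 1.70 CPM). With edgeR none was called at an adjusted p under 0.05, while 7 had a positive slope with an unadjusted p under 0.05 and 0 a negative one. Over all genes these shares were 0.873% positive and 1.61% negative, 2.49% together. The correlation of log2 CPM with the score was positive for 16 of the 19 against 51.5% of all genes, the median r was 0.54 against 0.01, and the median slope was 0.42 against -0.01. Much of this rested on the samples at the ends: without 408 and 445, the 2 farthest from the median score, 12 of the 19 had a positive r and the median was 0.21. Without 408 alone these were 15 and 0.34, with 5 positive and 1 negative slope at an unadjusted p under 0.05 (256 and 706 of 15123 genes). The list and the score come from the same libraries. Fewer mesothelial cells and less RNA per cell cannot be told apart in bulk samples.

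Upk1b and Krt7 followed the score most closely. Upk1b, a tetraspanin that pairs with uroplakin III proteins in the urothelial plaque, was at 27.3, 14.5, 15.2 and 9.20 CPM in the high samples and at 10.2, 8.83, 6.43 and 2.36 CPM in the low samples. The sets overlapped only in 407 and 435. Its slope was 1.06 ± 0.139 (SE, n = 8; edgeR's quasi-likelihood test, adjusted p = 0.0554), with r = 0.97 and rho = 0.95 (exact permutation p = 0.000149 and 0.00114, adjusted p for r 0.971 over 15123 genes) and r = 0.90 without samples 408 and 445, the 2 farthest from the median score. Krt7, a keratin of simple and glandular epithelia, was at 20.4, 12.4, 10.2 and 8.79 CPM against 5.49, 2.87, 5.02 and 2.44 CPM, so all 4 high samples lay above all 4 low ones. Its slope was 1.08 ± 0.148 (SE, n = 8; edgeR, adjusted p = 0.0579), with r = 0.95 and rho = 0.98 (exact permutation p = 0.000521 and 0.000397) and r = 0.90 without 408 and 445. The score gene Msln ranked ahead of Krt7 in edgeR's adjustment, which lowered the adjusted p of Krt7. DESeq2 called both (adjusted p = 6.62e-10 for Upk1b and 1.22e-08 for Krt7), and with sex as a covariate edgeR gave 0.294 and 0.329. The lymphocyte covariate gave 0.035 for each and no count filter 0.0279 and 0.0393 (edgeR, adjusted p). Without 408 the slopes were 0.90 and 1.20 (edgeR, adjusted p = 0.152 and 0.148).

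Of the next genes of the list, DESeq2 called 3, Cldn15 (adjusted p = 6.57e-06), Aldh1a2 (0.0253) and Gpm6a (0.0241), and edgeR with the lymphocyte covariate called Cldn15 (0.0491). Cldn15, a claudin that forms cation pores in tight junctions, was at 18, 9.90, 9.75 and 5.41 CPM against 5.26, 6.62, 4.27 and 0.688 CPM, and its slope was 1.24 ± 0.221 (SE, n = 8; edgeR, adjusted p = 0.223). Aldh1a2, the enzyme that makes retinoic acid from retinal, was at 12.2, 8.52, 7.41 and 6.22 CPM against 1.39, 3.89, 5.44 and 0.939 CPM with no overlap, and its slope was 1.07 ± 0.272 (SE, n = 8; edgeR, adjusted p = 0.909). Aldh1a2 and Krt7 were the 2 genes of the 19 whose high samples all lay above the low ones, where 0.82% of all genes did so. Gpm6a, a membrane glycoprotein of neurons and mesothelium, was at 65.7, 39.9, 16.6 and 24.2 CPM against 17.6, 28.4, 19.5 and 9.60 CPM, and its r of 0.81 became 0.30 without 408 and 445. Igfbp6, which binds insulin-like growth factors, and Slpi, a secreted protease inhibitor, completed the 7 with unadjusted p = 0.0308 and 0.0476. The slope of Igfbp6 was 0.53 and became 0.21 without 408, and its r of 0.72 became -0.21 without 408 and 445. Slpi was not particular to the retained material, since it stood at 245 to 408 CPM in whole spleen and at 181 to 337 CPM in the size-selected samples.

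Several genes counted as mesothelial did not follow the 4 markers. The 3 of the 19 with a negative r were Muc1, Ezr and Cdh1. Muc1, a membrane mucin of epithelia, had the steepest negative slope of the list (-0.63 ± 0.304, SE, n = 8; edgeR, unadjusted p = 0.0652), which was -0.87 to -0.42 over the alternatives. It was at 1.74, 1.66, 0.702 and 1.81 CPM in the high samples and at 2.07, 0.911, 5.81 and 3.81 CPM in the low samples, highest in 436 and 408 and with overlap, and at 1.90 to 6.65 CPM in whole spleen. Ezr, which encodes ezrin, a link between membrane and actin, was at 521 to 624 CPM against 215 to 1127 CPM (slope -0.28 ± 0.208), and Cdh1, which encodes E-cadherin, at 2.94 to 7.92 CPM against 1.51 to 14.7 CPM (slope -0.24 ± 0.339). The paired keratins Krt8 and Krt18, which build the filaments of simple epithelia, did not fall with the score. Krt8 was at 67.1, 34.4, 28 and 20.005 CPM in the high samples and at 4.02, 2.17, 49.5 and 21.5 CPM in the low samples. Krt18 was at 47.3, 27.8, 7.57 and 8.93 CPM against 3.05, 2.03, 35.4 and 14.6 CPM. Both were lowest in 427 and 435, and 436, a low sample, was second only to 445. Their slopes of 0.44 ± 0.404 and 0.39 ± 0.416 (SE, n = 8) had unadjusted p = 0.301 and 0.364. With sex as a covariate both slopes turned negative (-0.09 and -0.23), and that of Krt18 was -0.06 without 445. Has1, a hyaluronan synthase, was at 54.0, 38.1, 53.4 and 42.4 CPM against 53.1, 72.1, 123 and 25.3 CPM, and was highest in the low sample 436. Its slope of -0.13 ± 0.269 became 0.17 without 436. Wt1, a transcription factor that marks mesothelium from the embryo on, stood at 1.14 to 3.72 CPM (slope 0.32 ± 0.255, unadjusted p = 0.231, and 0.07 without 408), and the Wnt co-activator Rspo1 at 4.57 to 35.4 CPM with its highest value in 407 (slope 0.20 ± 0.403, but -0.37 without 408). In whole spleen Has1 was at 0 to 2.55 CPM, Krt8 at 0 to 0.798 CPM and Rspo1 at 0 to 1.23 CPM, below every size-selected sample, and these 3 had enough counts to be tested only in the size-selected samples.

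The 3 genes that did pass the test across all genes were Agr2, Krt15 and Lgals7, all with positive slopes, which is 0.0198% of the 15123 genes; 0 genes passed with a negative slope. Agr2 encodes a protein disulfide isomerase of secretory epithelia, Krt15 a keratin of the basal layer of stratified epithelia, and Lgals7 galectin-7, a lectin of stratified epithelia. All 3 were scarce, and all were chosen for description after their values were seen because they fell under the level set for naming genes. Agr2 was at 8.02, 5.12, 2.41 and 1.14 CPM in the high samples and at 0.183, 0.280, 0 and 0 CPM in the low samples, and was not counted in any whole spleen sample. Krt15 was at 7.19, 4.56, 2.86 and 1.41 CPM against 0.0610, 0.140, 0.113 and 0 CPM, and Lgals7 at 12.2, 2.70, 5.16 and 4.43 CPM against 1.52, 0.771, 0.621 and 0.0762 CPM. No low sample reached a high one for any of the 3. The slopes were 3.58 ± 0.442 for Agr2, 3.52 ± 0.438 for Krt15 and 2.21 ± 0.267 for Lgals7 (SE, n = 8; edgeR, adjusted p = 0.0483 for each), and r was 0.94, 0.92 and 0.97 with 0.97, 0.94 and 0.90 without 408 and 445. Agr2 and Krt15 had enough counts to be tested only through the high samples, since their low samples held at most 4 and 2 counts, so a large positive slope came with their entry into the test and is given as a description. The calls stood at the threshold. With 1 library left out at a time, 0 genes were called without 407, 408, 435, 436, 445 or 447, and Dmkn alone without 460. Without 427, Agr2, Krt7 and Upk1b were called higher and the immunoglobulin segment Ighv7-3 lower. No gene was called with limma-voom or with sex as a covariate. The slopes stayed about as large over the alternatives, at 3.03 to 4.38 for Agr2, 2.90 to 4.37 for Krt15 and 2.05 to 2.40 for Lgals7, and with sex as a covariate they were 3.62, 3.29 and 2.40. The 13419 genes with at least 10 counts in every sample, where 0 were called, do not include these 3, and DESeq2 called 18 higher, including these 3.

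Other genes of stratified or secretory epithelium, listed after the values were seen, are described only, since the choice set their direction. Krt14, Aqp5 and Sbsn also had enough counts to be tested mainly through the high samples. Krt14, the basal keratin encoded in the type I keratin cluster of chromosome 11 that also holds Krt15 and Krt19, was at 12.6, 1.66, 4.11 and 5.77 CPM against 1.10, 0.561, 0.169 and 0 CPM (slope 2.69 ± 0.455, edgeR, adjusted p = 0.157). Dmkn, a secreted protein of the epidermis, was at 23.6, 7.68, 28.3 and 3.96 CPM against 2.93, 1.75, 1.30 and 0.686 CPM (slope 2.12 ± 0.357, adjusted p = 0.157). The water channel Aqp5 was at 3.56, 1.45, 1.60 and 2.08 CPM against 0.793, 0.491, 0.113 and 0.0762 CPM, and Sbsn, which lies near Dmkn on chromosome 7, at 3.08, 1.23, 1.83 and 0.955 CPM against 0.203, 0.688, 0.341 and 0.140 CPM. The basal keratin Krt5, the usual partner of Krt14, was at 0 in all 8 size-selected samples, and the basal transcription factor Trp63 was at 0.0692 to 1.10 CPM with overlap. The list has 18 genes, Agr2, Krt15 and Lgals7 among them. Of the 18, 12 were tested and 7 had no overlap, counts that include these 3 genes. A positive slope at an unadjusted p under 0.05 was found for 7 with all samples (0.873% of all genes) and for 7 without 408 (256 of 15123 genes). Krt10, Sfn, Perp and Dsc3 had slopes between -0.08 and 0.09. Over all genes 0.82% were higher without overlap, and since several members entered the test through the high samples nothing is read from the count. DESeq2 called Krt14, Dmkn, Aqp5 and Sbsn. Reads of similar keratins are shared out by the deposited estimate, so single keratins carry that uncertainty.

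Among further genes chosen after their values were seen for having no overlap, Tmem151a was at 8.93, 9.47, 8.27 and 5.17 CPM against 3.60, 3.64, 2.93 and 1.14 CPM (slope 1.08 ± 0.169, edgeR, adjusted p = 0.107). Chst4, a sulfotransferase that modifies mucin-type sugars, was at 8.55, 4.08, 4.21 and 5.44 CPM against 2.01, 0.911, 0.846 and 0.610 CPM (slope 1.47 ± 0.235, adjusted p = 0.119) and was at 0 in all whole spleen samples. Amhr2, the receptor for anti-Müllerian hormone, which had enough counts to be tested mainly through the high samples, was at 2.57, 1.45, 1.55 and 1.41 CPM against 0.610, 0.421, 0.677 and 0.381 CPM (slope 1.02 ± 0.226, adjusted p = 0.558). DESeq2 called Tmem151a and Chst4.

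The more abundant genes (3 or more in mean log2 CPM) with the smallest p-values did not pass the edgeR test, while DESeq2 called Cyp2s1 (adjusted p = 0.0162), Neat1 (0.00469) and Fgl2 (0.00712) beside those given elsewhere. On the higher side, beside Upk1b and Gpm6a, Cyp2s1, a cytochrome P450 of epithelia, was at 17.6, 15.5, 10.3 and 5.71 CPM against 5.30, 7.99, 7.16 and 3.51 CPM (slope 0.74 ± 0.167, edgeR, adjusted p = 0.591). Plxnb1, a semaphorin receptor, Pgpep1, Slc35f6 and AC131339.2 had slopes of 0.23 to 0.55 and adjusted p = 1. The immunoglobulin segment Igkv8-30, one of a family of similar segments that share reads, was at 179 CPM in 445 and at 20.7 to 53.6 CPM in the other 7 samples, and its r was 0.69 with all samples and -0.000643 without 408 and 445. On the lower side, beside Col28a1, Sostdc1, Apod and Sfrp5, the nuclear RNA Neat1 was at 49.6 CPM in 408 and at 5.92 to 11.7 CPM in the others, and its slope of -0.92 ± 0.169 became -0.34 without 408. The splicing kinase Clk1 was likewise high in 408 alone (215 CPM against 76.0 to 90.5 CPM). Fgl2, a secreted fibrinogen-like protein, was at 59.3, 48.0, 81.2 and 103 CPM against 93.8, 139, 499 and 251 CPM (slope -1.10 ± 0.266, edgeR, adjusted p = 0.744). Pmepa1, a membrane protein that dampens TGF-beta signalling, was at 36.8, 36.6, 39.8 and 33.6 CPM against 58.2, 42.7, 49.5 and 81.9 CPM with no overlap (slope -0.40 ± 0.0956, edgeR, adjusted p = 0.715; DESeq2, 0.095), and its slope was -0.28 without 408.

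**Figure D2:**
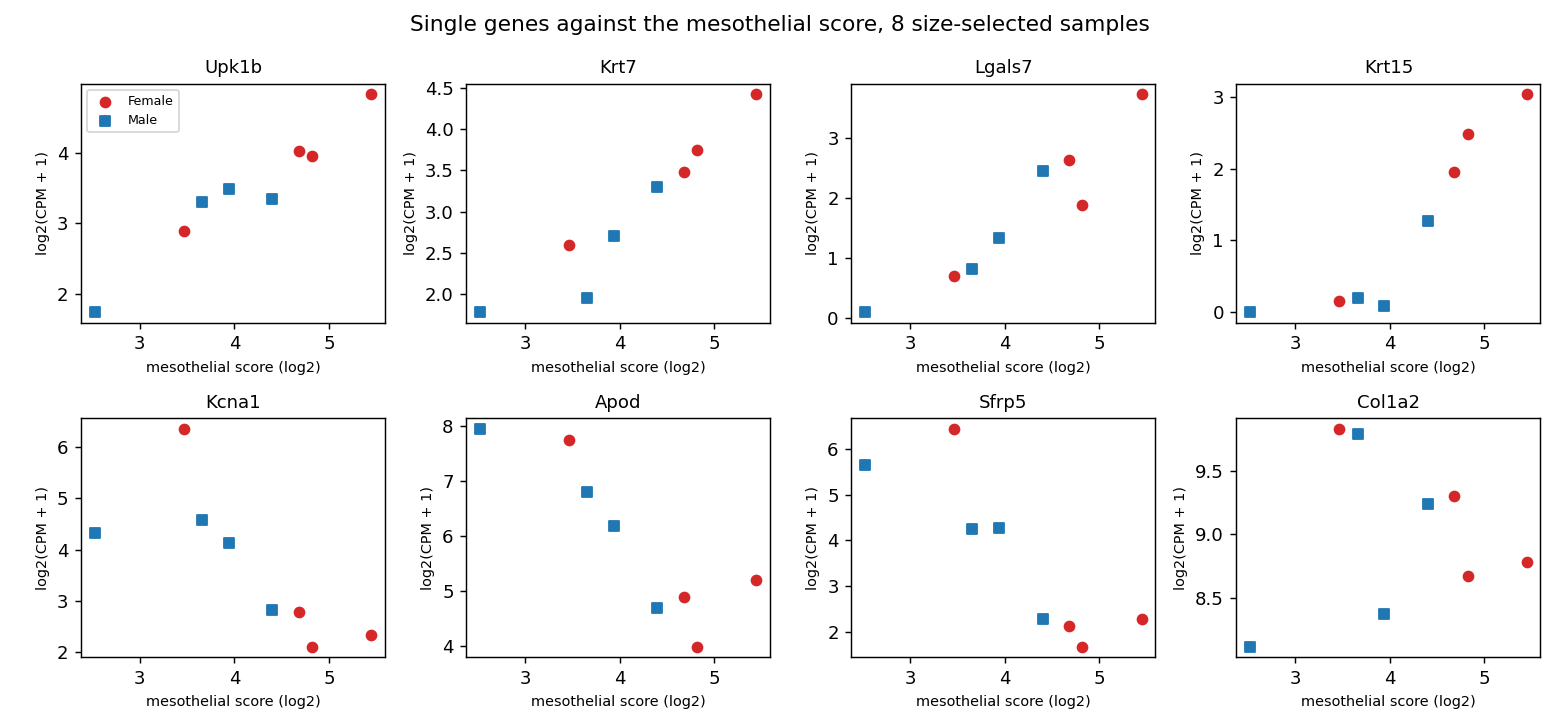
Log2(CPM + 1) of 8 single genes against the mesothelial score (log2) in the 8 size-selected samples, with circles for female and squares for male samples; each panel has its own y axis. Upk1b, Krt7, Lgals7 and Krt15 are higher toward the right, Kcna1, Apod and Sfrp5 are lower there, and Col1a2 shows no order (r = 0.07).

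Glial genes had negative correlations with the mesothelial score, of very different sizes, and no single gene passed the edgeR test. Peripheral glia are Schwann cells and their relatives, which wrap or accompany axons, and these are the cells the size-selected material is labelled as. All 14 genes of the glial list had a negative r (51.5% of all genes had a positive one), with a median r of -0.54 and a median slope of -0.70. None was called, 5 had an unadjusted p under 0.05 (1.61% of all genes on that side), and in 7 all 4 high samples lay below all 4 low ones (1.26% of all genes). Without 408 all 14 again had a negative r, with a median of -0.72. In that fit 10 had a negative slope at an unadjusted p under 0.05, as did 706 of 15123 genes. Without 436, the sample with most glial RNA, the median was -0.51. The potassium channel Kcna1 was at 4.09, 3.32, 5.87 and 6.11 CPM in the high samples and at 16.5, 22.8, 80.6 and 19.1 CPM in the low samples, with no overlap. Its slope was -1.66 ± 0.442 (SE, n = 8; edgeR, adjusted p = 1; DESeq2 called it), with r = -0.76 and rho = -0.90 (exact permutation p = 0.0257 and 0.00456, adjusted 1 for r) and r = -0.96 without 408 and 445. Gfra3, the receptor subunit for artemin on Schwann cell precursors and sensory neurons, was at 2.87, 2.84, 2.96 and 4.03 CPM against 19.0, 17.9, 70.2 and 15.4 CPM. L1cam, an adhesion protein of axons and Schwann cells, was at 14.4, 14.1, 20.9 and 12.6 CPM against 31.4, 27.5, 69.7 and 30.6 CPM. Sample 436 was highest for Kcna1, Gfra3 and L1cam. Markers of the glial lineage itself were flatter, with a slope of -0.35 ± 0.383 for Sox10 and -0.07 ± 0.225 for Fabp7 (SE, n = 8; unadjusted p = 0.381 and 0.764).

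Genes of the nerve sheath and endoneurium were listed after the values were seen, so their shared direction is fixed by the choice and they are described only. All 9 tested had a negative r (51.5% of all genes had a positive one), and in 5 the high samples lay below the low ones without overlap (1.26% of all genes). At an unadjusted p under 0.05, 7 had a negative slope (1.61% of all genes), and 9 without 408 (706 of 15123 genes). Apod, a lipid carrier of endoneurial fibroblasts, was at 35.6, 14.9, 28.7 and 24.8 CPM against 71.7, 111, 215 and 245 CPM (slope -1.33 ± 0.253, edgeR, adjusted p = 0.26). Sfrp5, a secreted Wnt antagonist, was at 3.86, 2.21, 3.41 and 3.89 CPM against 18.2, 17.9, 84.9 and 49.2 CPM (slope -1.98 ± 0.405, adjusted p = 0.356). Col28a1, a collagen found around Schwann cells, was at 4.39, 6.09, 8.62 and 6.51 CPM against 9.21, 13.3, 24.6 and 21.0 CPM (slope -0.90 ± 0.166, adjusted p = 0.234). The 4 high samples were close to each other for Sfrp5, while the low samples spread from 17.9 to 84.9 CPM. The integrin Itgb4 of perineurial cells and Schwann cells was at 16.6 to 21.4 CPM in the high samples and at 25.6 to 67.4 CPM in the low samples. The BMP and Wnt antagonist Sostdc1, at 3.40 to 6.91 CPM against 5.79 to 29.2 CPM, overlapped only in 407 and 435. DESeq2 called 25 genes lower, Apod, Sfrp5, Col28a1, Sostdc1, Kcna1, Gfra3, Reln, Neat1 and Fgl2 among them, and edgeR 0.

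**Figure D3:**
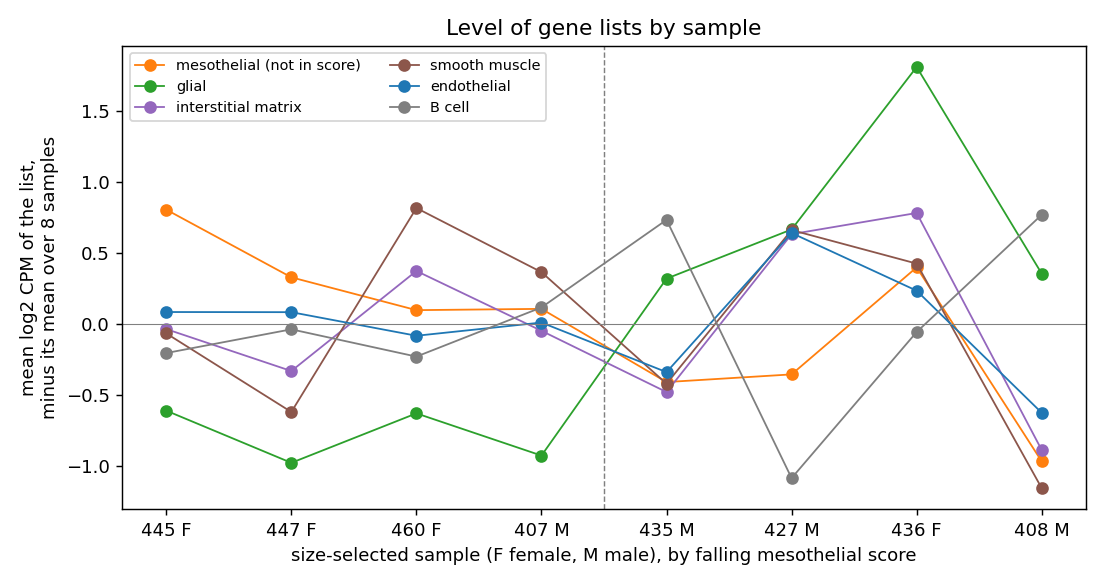
Mean log2 CPM of 6 gene lists in each size-selected sample, minus the mean of the list over the 8 samples, ordered by falling mesothelial score with a dashed line between high and low samples. The glial list lies at 2.27 to 2.63 log2 CPM in the high samples and at 3.56 to 5.05 in the low samples. The mesothelial (outside the score), matrix, smooth muscle, endothelial and B cell lists overlap between the sets. On the mesothelial list the low sample 436 (4.025) lies above the high samples 447 (3.955), 407 (3.733) and 460 (3.724).

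The fibrous capsule under the mesothelium did not follow the score as a whole. Of 15 genes of capsular and adventitial fibroblasts, 8 had a positive and 7 a negative r (median 0.03). Only 1, the proteoglycan Lum, had an unadjusted p under 0.05, with a negative slope (1.61% of all genes). Without 408, 1 had a positive and 14 a negative r (median -0.49). In that fit 6 had a negative slope at an unadjusted p under 0.05, as did 706 of 15123 genes. Lum was at 33.0, 14.9, 29.4 and 27.2 CPM against 47.0, 107, 223 and 35.8 CPM (slope -0.98 ± 0.431, edgeR, adjusted p = 1). Cd34, a sialomucin of adventitial fibroblasts and vessels, was at 192, 144, 132 and 184 CPM against 116, 226, 193 and 96.3 CPM. For the interstitial matrix genes the median r was 0.13 and for basement membrane 0.24, with 0 of 16 and 0 of 14 genes at an unadjusted p under 0.05. Without 408 both medians were negative (-0.40 and -0.47), and 4 matrix and 2 basement membrane genes had a negative slope at that limit. Col1a2, a chain of type I collagen, was at 439, 405, 628 and 604 CPM against 330, 882, 907 and 276 CPM, highest in 436 and 427 and lowest in 408 and 435. The list of matrix genes thus ordered the low samples otherwise than the score did, with 436 and 427 above every high sample and 435 and 408 below.

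For contractile genes the direction depended on 1 library. All 12 smooth muscle genes had a positive r, with a median of 0.32, and 0 had an unadjusted p under 0.05, but without 408 the r was positive for 1 of the 12 and the median was -0.30. Des, the intermediate filament of muscle and of splenic stromal cells, was at 292, 265, 900 and 487 CPM against 156, 447, 333 and 152 CPM (slope 0.47 ± 0.325, unadjusted p = 0.178). Myh11, the heavy chain of smooth muscle myosin, was at 137 to 404 CPM against 77.2 to 304 CPM.

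Vessel genes were mixed. Of 12 endothelial genes 9 had a positive r (median 0.29; without 408, 4 and -0.25), and 2 had an unadjusted p under 0.05, Stab2, the hyaluronan receptor of sinusoids (slope 0.43 ± 0.186), and Egfl7, a secreted vessel factor (slope 0.32 ± 0.133). Without 408, 0 endothelial genes had a positive and 1 a negative slope at that limit (256 and 706 of 15123 genes). Of 6 genes of lymphatic endothelium 2 had a positive and 4 a negative r (median -0.28), and 1 had an unadjusted p under 0.05 (3 without 408). This was Reln, a secreted glycoprotein of lymphatic vessels, at 1.51, 1.59, 2.26 and 2.22 CPM against 4.27, 4.14, 28 and 7.09 CPM (slope -1.50 ± 0.440, edgeR, adjusted p = 1; DESeq2 called it), with no overlap. Red pulp and white pulp reticular genes had medians of 0.21 and -0.11, with none at an unadjusted p under 0.05 (without 408, medians of -0.21 and -0.26, with 3 red pulp genes at a negative slope).

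Markers of blood cells and neighbouring organs gave no calls. The median r was -0.27 for B cells, -0.10 for T cells, 0.19 for macrophages and 0.30 for the genes of peritoneal macrophages, which float in the cavity that the mesothelium lines, and the B cell factor Pax5 was the single gene of these lists with an unadjusted p under 0.05, with a slope of -0.50 ± 0.171. Without 408 the medians were -0.00451, 0.14, -0.15 and 0.05. All 8 megakaryocyte genes had a negative r (median -0.15) with 0 at an unadjusted p under 0.05. Without 408 their median was -0.65, with 6 at a negative slope at that limit (706 of 15123 genes). All 8 erythroid genes had a positive r (median 0.16; without 408, 0.22), again with 0 at that limit. Without 436 both directions were lost, with a positive r in 5 of 8 megakaryocyte genes and 3 of 8 erythroid genes; without 445 the latter were 5 of 8. Of 12 genes of pancreatic acinar cells, which lie against the spleen, only Cela1 was tested (12.3 to 35.6 CPM, with 11.7 to 23.4 CPM in whole spleen). The defining acinar genes Prss2 and Cpa1 were at most at 0.564 and 0.451 CPM, and Adipoq, which defines fat cells, at most at 0.395 CPM. Of 12 fat cell genes 5 were tested, all with a negative r (median -0.39) and 0 at an unadjusted p under 0.05. Without 408 their median was -0.55 with 2 at that limit, and without 436 it was -0.27 with 4 of 5 negative. Epcam, which pancreatic duct and other epithelia make and mesothelium does not, was at 22.8, 15.8, 12.2 and 9.26 CPM against 11.7, 3.01, 16.1 and 24.6 CPM, and at 11.5 to 23.3 CPM in whole spleen.

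**Figure D4:**
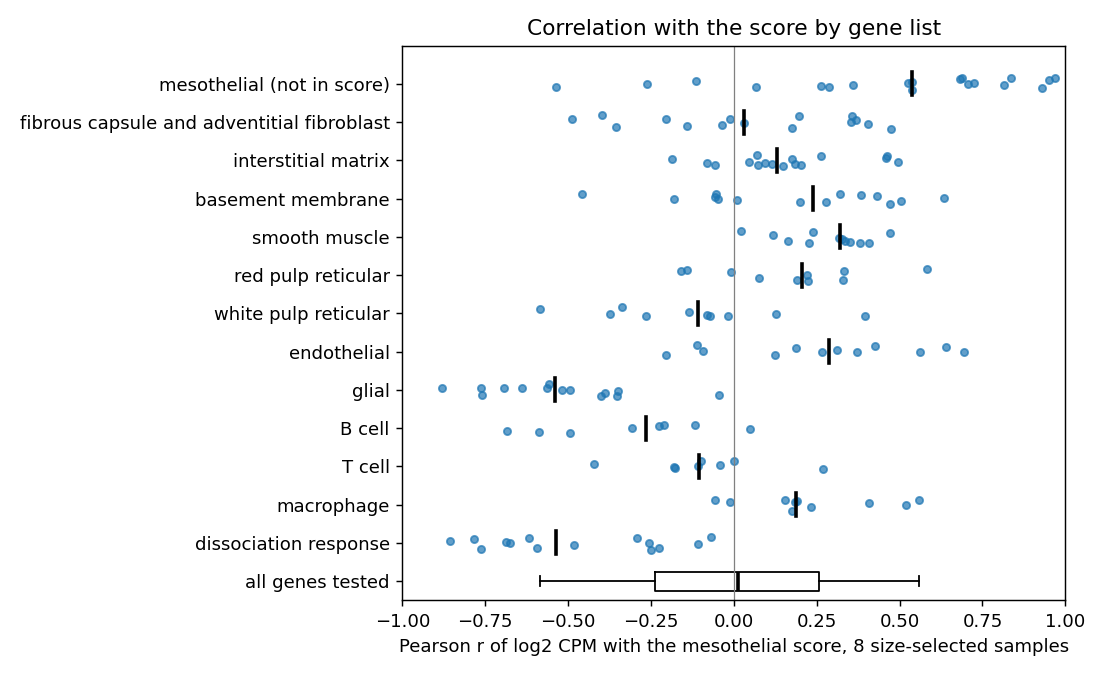
Pearson r of log2 CPM with the mesothelial score over 8 size-selected samples for each tested gene (points) of 13 lists, with the list median as a black line; the box at the bottom gives the quartiles of all genes tested, with whiskers from the 5th to the 95th percentile. The mesothelial list has a median of 0.54, the glial and dissociation lists medians of -0.54, and the other lists lie between -0.27 and 0.32; these include sample 408.

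Genes that respond to tissue dissociation leaned against the score by small amounts. All 14 had a negative r (median -0.54), 3 had a negative slope at an unadjusted p under 0.05 (1.61% of all genes) and 4 were lower without overlap (1.26% of all genes), while the median slope was -0.20. Without 408 the median r was -0.75, with 8 at a negative slope at that limit (706 of 15123 genes). Without 445 the median r was -0.44, with 1 at that limit (146 of 15123 genes) and 12 of 14 negative. Zfp36, which destabilises inflammatory messenger RNAs, was at 492, 427, 517 and 531 CPM against 554, 732, 609 and 730 CPM (slope -0.26 ± 0.084, edgeR, adjusted p = 1). The part of dissociation in the other gene differences was not tested.

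By label, the score was 4.60 ± 0.830 in the 4 female samples (3.46 to 5.45) and 3.63 ± 0.799 in the 4 male samples (2.52 to 4.40). The difference of 0.97 did not pass an exact permutation test (two-sided p = 0.171, where 4 against 4 can give 0.0286 at the least). The score of a size-selected sample showed no relation with that of the whole spleen of its number (r = 0.06, exact permutation p = 0.881; rho = 0.19, p = 0.665), and r was -0.10 without 408 and 445. The whole spleen score rested on 0 to 13 counts a gene, and 0 of the 4 score genes and 8 of the 20 other mesothelial genes had enough counts to be tested there. A slope on the whole spleen score called 0 of 13383 genes with edgeR, with 4.21% at an unadjusted p under 0.05.

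Totals of the size-selected samples were 13119992 to 19944440 estimated counts and those of whole spleen 12153770 to 16282454, and genes above 0 numbered 20291 to 21835 and 18322 to 18762. Over 6 technical measures, the score had r = 0.09 with the total, -0.04 with the number of genes above 0 and 0.28 with the TMM scaling factor. It had r = -0.65, -0.57 and -0.48 with 3 constants that multiply sets of genes in the size-selected columns (exact permutation p = 0.0761, 0.139 and 0.231, adjusted over the 6 measures 0.416, 0.416 and 0.461), and without 408 and 445 these became 0.05, -0.45 and 0.74. No score gene carries such a constant, and dividing the constants out left the same 3 genes called.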

How the data were processed

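RNA-seq of 8 size-selected and 8 whole spleen samples was used, with 12153770 to 19944440 counts a sample, which limits genes of a few counts. The submitters' processing notes name Trim Galore, STAR, RSEM, DESeq and mm10, without versions. The deposited values are estimated counts per gene, and in the size-selected columns those of 3898 genes carry up to 3 constant factors, found from the values and named in no label. CPM is the count over the column sum times 1000000. All 16 columns were used (0 columns of per-sample values were left out); the authors' deposited comparison table was not used. Of 54838 gene identifiers, 54723 were in GENCODE M21.

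The members, gene lists and naming rule were chosen with earlier results of these data known. The named genes were the score genes, the mesothelial list and, since fewer than 5 were called at a mean log2 CPM of at least 3, the 8 with the smallest p in each direction; from other lists the 3 most abundant genes and any called. Genes outside this were chosen after their values were seen. Estimated counts were rounded for edgeR 4.0.16 (R 4.3.3), kept with filterByExpr (minimum count 10, smallest group of 4), scaled by TMM, and each gene's slope on the score was tested with the quasi-likelihood F test. The p-values were Benjamini-Hochberg adjusted over all genes fitted, the score genes included where they had enough counts, with calls under 0.05. Those for r were adjusted without the score genes. SE is the slope over the square root of F. Log2 CPM for correlations uses a prior count of 2, and permutation p-values run over all 40320 orders. The 4 against 4 split was described without a test. The fit between fractions had all 16 samples and no term but the fraction.

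Shared numbers pair the samples across fractions: deviations of same-numbered samples correlated at 0.12 to 0.38 (mean 0.21; -0.03 for other pairs), and 8 of 8 fitted best with their own number. Alternatives were DESeq2 1.42.0, limma-voom (limma 3.58.1), RLE size factors, library totals, other count filters, restored counts, scores without 1 gene, covariates, the block and leaving out each sample. Values of some genes are not reported here. Counts of list members without single samples were added after seeing the data.

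Counts were simulated with edgeR's own dispersion estimates, and genes were given a slope, the log2 change for each unit of score. The slope fit recovered 81% of genes with a slope of 1 and 98% of those with a slope of 2, among 14865 genes. Of its 187 calls 10 were false, and DESeq2 had 40 of 227 false among 15127 genes. The score spanned 2.92 units in the size-selected samples and ran from 0.095 to 0.798 in whole spleen. The whole spleen slope fit recovered 38.4% at a slope of 2 and 82.7% at a slope of 4 among 13150 genes.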

Additional observations from a re-analysis of the deposited data

Results flagged for a closer look

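Within groups of 8 samples, 47 sets of values were screened for a sample at an end whose gap to the nearest other relative to the range exceeded the critical value of Dixon's test, and 6 were found where chance gives about 2.35. Of the 6, 5 concern sample 408, which has the lowest score. Cldn15 was lowest in 408 at -0.30 log2 CPM, with the other samples at 2.14 to 4.15. Nkain4 was lowest there at 1.44 log2 CPM (others 2.98 to 4.28), and so was Pkhd1l1 at -2.28 log2 CPM (others -0.42 to 1.06). In the same sample the nuclear RNA Neat1 was highest at 5.63 log2 CPM (others 2.56 to 3.57), and Clk1 was highest at 7.75 log2 CPM (others 6.24 to 6.50). The immunoglobulin segment Igkv8-30 was highest in 445, the sample with the highest score, at 7.46 log2 CPM (others 4.42 to 5.76).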

How the results depend on the processing

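Of the 3 genes called higher, all were called again with RLE size factors, library totals, restored counts and TMM totals in the score. The count of genes called higher was 18 with DESeq2 and 6 with the lymphocyte covariate or with no count filter. It was 0 with limma-voom, with the sex covariate or with at least 10 counts in all 8 samples, and ranged from 0 to 3 when single samples were left out. With 1 gene left out of the score, it was 3 without Upk3b (Agr2, Krt15 and Krt7), 1 without Msln (Lgals7) and 0 without Lrrn4. Without Krt19 it was 1, Upk1b, so that none of the 3 genes was called again. The count called lower, 0, was 25 with DESeq2, 1 with the lymphocyte covariate and 2 with no count filter, and ranged from 0 to 1 without single samples; the cause was not tested. On counts simulated with edgeR's own dispersion estimates DESeq2 called more false genes than edgeR, which cannot tell whether its calls here are false. Adjusted p-values over the alternatives ran from 6.62e-10 to 0.322 for Agr2, 4.00e-09 to 0.321 for Krt15 and 2.34e-09 to 0.597 for Lgals7, while their slopes stayed at 3.03 to 4.38, 2.90 to 4.37 and 2.05 to 2.40. In whole spleen 3 genes were called higher with no count filter, and 0 to 6 without single samples. With 3 highest against 3 lowest samples, 466 genes were higher and 642 lower without overlap, as fewer samples allow. The r of size-selected with whole spleen scores was -0.31 to 0.44 without single samples, and negative without 408 (-0.31), 436 (-0.02) and 460 (-0.03). The sex difference was 0.60 to 1.35 without single samples. With the number as a replicate block, the size-selected samples had 5527 genes higher and 4545 lower (5442 and 4409 without), 5190 to 5476 and 3958 to 4409 without single numbers. The block changed no call of a fraction difference named here. Over 36 genes and 786 slopes under alternatives, 718 kept direction and side of the threshold, 38 lost a call, 21 gained one (12 with DESeq2) and 9 changed sign: Krt8 (-0.0877) and Krt18 (-0.234) with the sex covariate, Has1 with limma-voom (0.0323), and 6 without a single sample. These 6 were Krt18 (-0.0629 to 0.618 over the samples left out), Rspo1 (-0.367 to 0.481), Has1 (-0.561 to 0.173), Ezr (-0.359 to 0.0229), Pkhd1l1 (-0.220 to 0.785) and Cdh1 (-0.680 to 0.000819). Depth is one limit, since each called gene had 0 or 1 counts in at least 1 low sample.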
